A study of Mus musculus with 12 samples.

Results

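The genes described here are receptors of the EGF family, their ligands and a feedback inhibitor, in a mouse kidney tubule cell line treated to remove PAX8. The members were taken by symbol: the receptors Egfr, Erbb2 and Erbb3, the ligands Areg, Ereg, Hbegf, Tgfa, Btc and Nrg1, and the inhibitor gene Errfi1. All 10 had 1 row each in the deposited tables of 55491 genes, and 9 were among the 13513 genes that passed a filter on low counts, Ereg being the exception. PT-22 is a proximal tubule line of genotype Pax2-/-, Pax8fl/fl, Rosa-CreERT2, so every group, the control included, lacked Pax2 and carried floxed Pax8 alleles and a Cre recombinase that acts only when 4-hydroxytamoxifen is present. Confluent cells received 1 µM 4-hydroxytamoxifen for 2 days. RNA came from untreated cells (control) and from cells 2, 6 and 12 days after treatment, with 3 libraries (A, B and C) in each of the 4 groups, 12 in all. All libraries come from 1 cell line, and neither a vehicle group nor untreated cells of a later day were analysed here, so the drug, Cre activity, time in culture and PAX8 loss cannot be told apart. The labels do not say whether A, B and C were separate cultures, so each p-value measures only the spread between these libraries.

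EGF family ligands are made as membrane-anchored precursors, and metalloproteases of the ADAM family shed them from the cell surface. Amphiregulin (Areg), TGF-alpha (Tgfa), HB-EGF (Hbegf), betacellulin (Btc) and epiregulin (Ereg) bind EGFR, some of them ERBB4 as well, while neuregulin 1 (Nrg1) binds ERBB3 and ERBB4. ERBB2 has no known ligand and serves as a partner of the others, and ERBB3 has little kinase activity of its own. Active dimers signal through the RAS-ERK and PI3K-AKT pathways, and the ERRFI1 protein, whose gene this signalling can induce, binds the active kinase and blocks it. In the kidney tubule, EGFR signalling is known for its part in repair after injury.

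Promoter windows are shown for 4 members: Egfr, the member receptor with the largest fall, Btc, the ligand with the largest rise over control that passed the test, and Areg and Errfi1, whose windows hold a cAMP response element and were chosen after the matches were seen. RefSeq (GRCm38.p6) gave promoters for 6 of the 10 members. The 250 bases before each start were searched on both strands for 6 motifs, and capitals mark the letters matched. The first was the AP-1 site, spelled TGACTCA, which FOS and JUN proteins are known to bind. The next was the cAMP response element, TGACGTCA, the letters that CREB proteins recognise. Then came the GC box of SP1-like factors, searched as GGGCGG, followed by the E-box of basic helix-loop-helix factors, searched as CACGTG. The TATA box, which positions the start of transcription, was searched as TATAAA. The last was a core of paired-domain sites, the kind that PAX proteins bind, searched as GTCACGC. The windows are chr11:16751953-16752202 (plus strand) for Egfr, chr5:91402995-91403244 (minus strand) for Btc, chr5:91139349-91139598 (plus strand) for Areg and chr4:150854820-150855069 (plus strand) for the second of the 2 Errfi1 starts, each written 5′ to 3′ along the gene. The Errfi1 window overlaps no Errfi1 exon of GENCODE M21 and shares 124 bases with an exon of the antisense gene 1700045H11Rik.
Egfr: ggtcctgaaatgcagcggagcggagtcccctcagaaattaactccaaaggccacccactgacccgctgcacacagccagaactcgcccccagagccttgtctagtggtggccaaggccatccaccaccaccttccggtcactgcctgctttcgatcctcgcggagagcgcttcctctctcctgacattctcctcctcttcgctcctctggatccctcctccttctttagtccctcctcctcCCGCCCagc
Btc: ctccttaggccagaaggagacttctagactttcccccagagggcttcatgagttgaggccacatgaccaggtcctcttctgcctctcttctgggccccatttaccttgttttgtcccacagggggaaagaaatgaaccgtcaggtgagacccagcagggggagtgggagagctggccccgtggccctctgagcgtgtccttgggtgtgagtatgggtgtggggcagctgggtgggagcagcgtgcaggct
Areg: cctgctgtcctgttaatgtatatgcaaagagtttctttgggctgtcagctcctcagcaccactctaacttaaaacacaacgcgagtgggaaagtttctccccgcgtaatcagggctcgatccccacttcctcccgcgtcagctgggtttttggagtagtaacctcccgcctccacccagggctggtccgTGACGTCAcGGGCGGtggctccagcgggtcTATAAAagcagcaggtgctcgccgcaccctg
Errfi1: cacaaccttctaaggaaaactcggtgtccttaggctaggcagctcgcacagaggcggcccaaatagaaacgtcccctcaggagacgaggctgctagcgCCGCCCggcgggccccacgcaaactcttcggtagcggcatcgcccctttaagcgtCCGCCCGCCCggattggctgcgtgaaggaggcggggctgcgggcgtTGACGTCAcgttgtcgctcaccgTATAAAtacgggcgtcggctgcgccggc
Areg held the cAMP response element 61 bases before its start and a TATA box at 31, and the second Errfi1 start held them at 51 and 28. Of 32851 promoter windows of this length, 1.55% held the element, 12.4% a TATA box and 0.119% both. GC boxes were found in Areg, Egfr, Tgfa (not shown) and the second Errfi1 window, where 2 of the 3 matches share letters, and 32.7% of all windows held at least 1. None of the 6 motifs was found in the Btc window, and the AP-1 site, the E-box and the paired-domain core were in no member window, against 4.46%, 6.02% and 1.78% of all windows. A match describes letters and is not a binding site.

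Library totals ran from 4326667 counts (day 2 B) to 11654959 counts (day 2 C). Pax8, the gene the Cre was to delete, had 221 to 228 CPM in control, 367 to 460.4 CPM at day 2, 249 to 268 CPM at day 6 and 232 to 252 CPM at day 12, so its transcript was not lower after treatment, and at day 2 it was 1.78-fold higher (edgeR adjusted p = 5.59e-12). Day 6 passed as higher too (log2 0.18, edgeR adjusted p = 0.0181). That call was lost without control A (edgeR adjusted p = 0.0574) or day 6 C (0.0978), and in limma on log2(TPM + 1) (0.288). CPM stands for counts per 1000000 of the library's total over the 13513 genes that passed the filter, after TMM scaling. The labels do not name the floxed exons, so a count over the whole gene checks neither the deletion nor the labels. Of 16 proximal tubule markers, Slc34a1, Slc5a2 and Slc5a12 were at 0 in every group, and the sum of the list was 399 to 439 TPM in control, 439.8 to 479.7 TPM at day 2, 662 to 835 TPM at day 6 and 399 to 512 TPM at day 12. Aqp1 carried that sum, with means of 108, 344, 700.1 and 427 TPM from control to day 12, while Cdh6 went from 137 to 19.7 TPM between control and day 12, Anpep from 54.4 to 3.56, Slc6a18 from 39.1 to 0.237, Ggt1 from 31.8 to 4.14, Pdzk1 from 10.1 to 0.233 and Hnf4a from 4.59 to 0.863, so most of the expressed markers were lower. TPM divides by transcript length and serves to compare genes. Kidney epithelium markers (6, Pax8 among them) summed to 945 to 1048 TPM in the control libraries, 654 to 676 at day 2, 281 to 344 at day 6 and 264 to 294 at day 12. Cdh16 carried most of that fall, with means of 701 TPM in control and 26.4 TPM at day 12. Between the same groups Epcam went from 94.9 to 50.7 TPM and Cdh1 from 9.73 to 1.06. Pax8 (170 and 189 TPM), Krt8 (2.72 and 8.93) and Krt18 (1.35 and 1.84) were not lower. Fibroblast markers (8) summed to 0.670 to 1.06, 0.850 to 1.57, 5.35 to 7.34 and 22.2 to 25.6 TPM from control to day 12, decorin (Dcn) making up 18.1 TPM of the last, with Col3a1 and Pdgfra at 0 in every group. Leukocyte markers (8) summed to 13.2 to 24.4 TPM over all libraries, led by Csf1r and Cd68 with Cd3e and Itgam at 0, and markers of endothelium (6), loop of Henle and distal tubule (7) and collecting duct (6) to at most 4.02, 3.71 and 4.47 TPM. Exons of Nrg1, Tgfa and Erbb2 share 482, 118 and 9 bases with genes on the opposite strand (Gm26578, Gm43917 and Mien1), and reads there cannot be told apart if the counting did not use strand. The part of these marker changes in the values below was not tested, and in such bulk samples fewer cells of a type and less RNA per cell cannot be told apart.

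Per transcript length, the inhibitor was the most abundant member in every group, and Erbb2 led the member receptors. In control cells Errfi1 stood at 119 to 139 TPM, followed by Erbb2 at 31.8 to 37.99 TPM and Egfr at 20.6 to 23.2 TPM. Hbegf, Tgfa and Nrg1 came next at 12.8 to 15.1, 12.1 to 14.6 and 10.7 to 12.6 TPM, each overlapping the next. Erbb3 lay at 5.96 to 7.88 TPM, Btc at 1.95 to 2.37 TPM and Areg at 0.840 to 2.03 TPM, the last pair overlapping, and Ereg was at 0 in all 12 libraries. By day 12 the order had shifted. Tgfa (14.6 to 15.6 TPM) and Hbegf (12.2 to 13.3 TPM) both stood above Egfr (7.71 to 11.5 TPM), which overlapped Nrg1 (8.91 to 9.94 TPM), and Btc (4.88 to 6.17 TPM) stood above Erbb3 (3.20 to 4.63 TPM). At day 6 the lower ranks were Erbb3 (6.19 to 6.96 TPM), then Btc (4.50 to 5.67 TPM) and Nrg1 (3.80 to 5.16 TPM), which overlapped, then Areg (1.56 to 2.39 TPM).

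**Figure D1:**
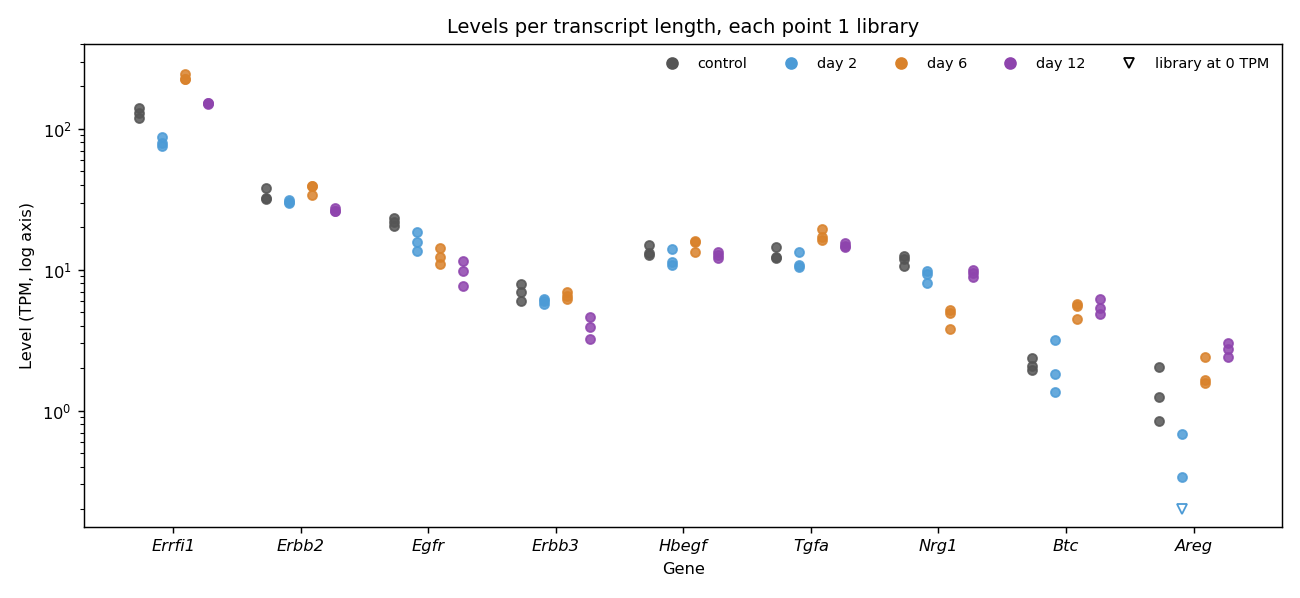
TPM on a log axis for 9 members, 1 point per library, coloured by group, with an open triangle where a library was at 0. Errfi1 lies above all other members in every group, between 75.6 and 243 TPM, and the Egfr points move from above those of Tgfa in control to below them at day 12.

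Among the member receptors, Egfr was lower at all 3 days, while Erbb2 and Erbb3 passed as lower than control at day 12 and not at day 2 or day 6. Egfr (ENSMUSG00000020122, GRCm38 chromosome 11, 16752203 to 16918158, plus strand), the receptor of EGF and of most ligands listed here, had 114, 106 and 112 CPM in control A, B and C, 75.9, 80.4 and 81.5 CPM at day 2, 42.2, 49.7 and 54.3 CPM at day 6, and 40.02, 41.2 and 40.9 CPM at day 12. No 2 of the 4 groups overlapped, and each later day lay below the one before it. The log2 fold change against control was -0.48 ± 0.073 (SE) at day 2, -1.19 ± 0.075 at day 6 and -1.44 ± 0.077 at day 12, the last a 2.72-fold lower level. The adjusted p of edgeR's quasi-likelihood test was 3.32e-06, 1.39e-15 and 9.42e-18. With limma on log2(TPM + 1) the day 2 difference did not pass (adjusted p = 0.0703). Between treated days Egfr was lower at day 6 than at day 2 by a log2 difference of -0.71 ± 0.078 (edgeR adjusted p = 3.22e-09), which did not pass in limma on TPM either (0.109). Day 12 against day 6 was -0.25 ± 0.082 (edgeR adjusted p = 0.02499), and this call was lost in limma on TPM (0.167) and without day 6 B (0.0812), day 6 C (0.197), day 12 A (0.0627) or day 12 C (0.0524).

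Erbb2 (ENSMUSG00000062312, GRCm38 chromosome 11, 98412470 to 98437716, plus strand), the partner without a ligand, had 101, 103 and 113 CPM in control, 94.1, 101 and 91.2 CPM at day 2, 97.7, 109 and 113 CPM at day 6, and 78.8, 81.3 and 77.2 CPM at day 12. The day 12 libraries were below all others, and those of day 6 overlapped control. Against control the log2 difference was -0.16 ± 0.068 at day 2 (edgeR adjusted p = 0.0891), 0.0054 ± 0.066 at day 6 (0.954) and -0.42 ± 0.067 at day 12 (1.99e-06), a 1.34-fold lower level. Without day 2 B, the library of lowest depth, the day 2 value passed (edgeR adjusted p = 0.0441). Erbb3 (ENSMUSG00000018166, GRCm38 chromosome 10, 128567523 to 128589652, minus strand), the neuregulin receptor with a weak kinase, had 27.1, 24.2 and 29.7 CPM in control, 23.8, 23.4 and 23.996 CPM at day 2, 22.6, 25.2 and 23.6 CPM at day 6, and 17.6, 14.5 and 12.02 CPM at day 12. Here too the day 12 libraries lay below all others. The log2 difference from control was -0.89 ± 0.12 at day 12 (edgeR adjusted p = 7.02e-08), 1.85-fold lower, against -0.19 ± 0.11 at day 2 (0.272) and -0.19 ± 0.11 at day 6 (0.151). From day 6 to day 12 Erbb2 changed by -0.43 ± 0.067 (edgeR adjusted p = 9.58e-06) and Erbb3 by -0.70 ± 0.12 (3.62e-05).

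The proportions of the receptor transcripts shifted with these changes. Per transcript length, the ratio of Egfr to Erbb2 was 0.579 to 0.727 in the control libraries, 0.433 to 0.624 at day 2, 0.311 to 0.359 at day 6 and 0.297 to 0.435 at day 12. Egfr made up 34.9 ± 2.83% (SD, n = 3) of the summed TPM of the 3 member receptors in control and 22.04 ± 1.37% at day 6, and Erbb2 54.05 ± 1.88% and 66.3 ± 0.811%. The sum itself was 62.9 ± 4.35 TPM in the control libraries, 52.3 ± 2.05 at day 2, 56.6 ± 4.88 at day 6 and 40.2 ± 1.705 at day 12. Ratios, shares and sums are given as descriptions without a test.

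Erbb4, the remaining receptor of the family and no member, was lower at all 3 days, with 84.96 ± 2.94, 59.7 ± 4.08, 39.6 ± 4.68 and 19.7 ± 1.099 CPM from control to day 12. By day 12 the level was 4.305-fold lower (log2 -2.11 ± 0.089, edgeR adjusted p = 1.62e-20). Each of the 4 receptors of the family was thus lower at day 12 than in control, where 26.6% of all tested genes were lower.

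**Figure D2:**
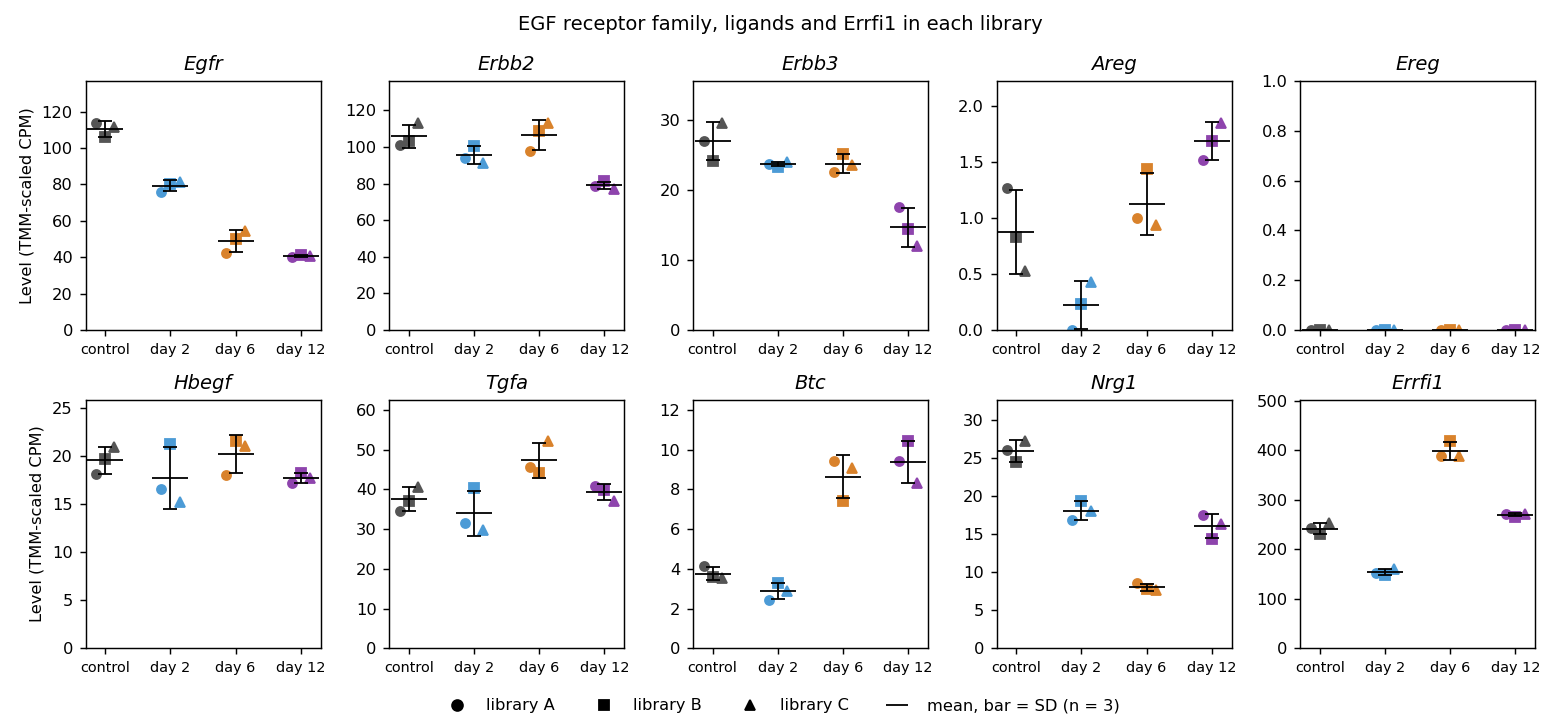
CPM of each member in every library (symbols for libraries A, B and C, colours for groups) with the mean and SD of the 3 libraries, each panel on its own axis from 0. Egfr steps down from 106 to 114 CPM in control to 40.02 to 41.2 CPM at day 12, Nrg1 is lowest and Errfi1 highest at day 6, and Ereg is at 0 throughout.

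The ligands did not move as 1 group. Nrg1 was lower at all 3 days, Btc was higher at days 6 and 12, Tgfa was higher at day 6, and Hbegf did not pass in any of the 6 comparisons. Nrg1 (ENSMUSG00000062991, GRCm38 chromosome 8, 31814551 to 32884029, minus strand), the ligand of ERBB3 and ERBB4, had 26.1, 24.5 and 27.3 CPM in control, 16.9, 19.4 and 18.1 CPM at day 2, 8.55, 7.85 and 7.74 CPM at day 6, and 17.5, 14.4 and 16.3 CPM at day 12. Every treated library was below every control library, and those of day 6 were the lowest. The log2 fold change was -0.53 ± 0.11 at day 2 (edgeR adjusted p = 4.89e-04), -1.69 ± 0.12 at day 6 (7.00e-14), a 3.22-fold lower level, and -0.70 ± 0.11 at day 12 (2.29e-06). From day 6 to day 12 Nrg1 rose by 0.99 ± 0.13 (edgeR adjusted p = 4.47e-07). In limma on log2(TPM + 1) the differences from control at day 2 (adjusted p = 0.1097) and day 12 (0.103) did not pass.

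Btc (ENSMUSG00000082361, GRCm38 chromosome 5, 91357261 to 91402994, minus strand), betacellulin, a ligand of EGFR and ERBB4, had 4.15, 3.597 and 3.55 CPM in control, 2.45, 3.27 and 2.903 CPM at day 2, 9.44, 7.404 and 9.07 CPM at day 6, and 9.45, 10.4 and 8.32 CPM at day 12. The day 6 and day 12 libraries were all above control and those of day 2 all below it. Btc was 2.29-fold higher at day 6 (log2 1.19 ± 0.19, edgeR adjusted p = 1.98e-06) and 2.49-fold higher at day 12 (1.31 ± 0.19, 2.79e-07), whereas the day 2 value of -0.41 ± 0.23 did not pass (0.241). The counts behind it were small, 14 to 95 per library.

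Tgfa (ENSMUSG00000029999, GRCm38 chromosome 6, 86195223 to 86275719, plus strand), TGF-alpha, an EGFR ligand, had 34.7, 37.1 and 40.7 CPM in control, 31.6, 40.5 and 29.8 CPM at day 2, 45.6, 43.98 and 52.1 CPM at day 6, and 40.95, 39.8 and 37.2 CPM at day 12. The day 6 libraries lay above all others, and the other groups overlapped. The level was 1.25-fold higher than control at day 6 (log2 0.33 ± 0.093, edgeR adjusted p = 0.00332), against -0.19 ± 0.10 at day 2 (0.201) and 0.066 ± 0.095 at day 12 (0.588). Without day 2 B the day 2 value was -0.29 and passed as lower (edgeR adjusted p = 0.0277).

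Hbegf (ENSMUSG00000024486, GRCm38 chromosome 18, 36504927 to 36515805, minus strand), the heparin-binding ligand of EGFR and ERBB4, lay at 18.1 to 20.9 CPM in control, 15.2 to 21.3 CPM at day 2, 17.99 to 21.5 CPM at day 6 and 17.2 to 18.2 CPM at day 12. Each of these ranges overlapped the others. The log2 differences from control were -0.19 ± 0.12, 0.042 ± 0.12 and -0.15 ± 0.12 (edgeR adjusted p = 0.316, 0.789 and 0.318). Without day 2 B, day 6 against day 2 passed (0.35, edgeR adjusted p = 0.0219).

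Areg (ENSMUSG00000029378, GRCm38 chromosome 5, 91139599 to 91148432, plus strand), amphiregulin, was near the limit of detection, with 11, 6 and 5 counts in control, 0, 1 and 5 at day 2, 10, 13 and 7 at day 6, and 13, 15 and 18 at day 12. In CPM the day 2 libraries (0 to 0.427) lay below control (0.523 to 1.27) and those of day 12 (1.52 to 1.85) above it. Neither difference from control passed, at -1.71 ± 0.66 (edgeR adjusted p = 0.0613) and 0.95 ± 0.44 (0.0665), and both passed in limma on log2(TPM + 1) (0.0265 and 0.02802). Leaving out 1 library moved the day 2 value over -3.11 to -1.19, and it passed without day 2 C (edgeR adjusted p = 0.0273) or control C (0.0423). The day 12 value passed in edgeR without control A (adjusted p = 0.0386) and in the fit to the 2 groups alone (0.0487), and did not pass in limma on log2(TPM + 0.1) (0.199). Areg was higher at day 12 than at day 2 by a log2 difference of 2.66 ± 0.58 (edgeR adjusted p = 2.71e-04, 2.14 to 4.06 leaving out libraries). The ratio of the summed counts of those days, 46 and 6, scaled by the totals used for CPM, was 6.57. Its 95% interval of 2.801 to 18.8 covers counting error only. Areg passed the filter on low counts only through its day 12 libraries, so its p-values with day 12 are descriptions. It was not tested under the stricter filter or in fits to 2 groups without day 12. Ereg (ENSMUSG00000029377, GRCm38 chromosome 5, 91074622 to 91093646, plus strand), epiregulin, had no count in 12 libraries, which at 3 counts allows up to 0.256 to 0.702 CPM depending on the library. Epgn (epigen), Ereg, Areg and Btc lie side by side on chromosome 5 with no other protein-coding gene between them in GENCODE M21. Their counts over all 12 libraries were 9, 0, 104 and 647, so Btc was the member of this cluster with most reads.

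Summed per transcript length, the EGFR ligands among the members (Areg, Ereg, Hbegf, Tgfa and Btc) reached 30.2 ± 2.08 TPM in the control libraries, 26.1 ± 4.198 at day 2, 39.9 ± 2.41 at day 6 and 35.9 ± 1.11 at day 12. Nrg1 made up 27.9 ± 1.01% of the summed TPM of all 6 ligands in control, 10.4 ± 1.61% at day 6 and 20.9 ± 1.01% at day 12. Btc made up 5.097 ± 0.587%, 11.8 ± 1.397% and 12.05 ± 1.21%. The ligand transcripts of day 6 thus held a smaller share of neuregulin and a larger share of betacellulin than those of control, with no overlap between libraries in either share.

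Errfi1 (ENSMUSG00000028967, GRCm38 chromosome 4, 150853919 to 150868892, plus strand), the gene of the feedback inhibitor, changed in opposite directions at day 2 and day 6. It had 242, 231 and 253 CPM in control, 151, 149 and 160.1 CPM at day 2, 387, 418 and 389 CPM at day 6, and 272, 266 and 271 CPM at day 12. No 2 groups overlapped. The log2 fold change against control was -0.65 ± 0.057 at day 2 (edgeR adjusted p = 2.64e-11), 0.72 ± 0.054 at day 6 (1.61e-13) and 0.16 ± 0.055 at day 12 (0.0166), that is 1.57-fold lower, 1.65-fold higher and 1.11-fold higher. The day 12 value did not pass without control B (edgeR adjusted p = 0.0902). From day 2 to day 6 Errfi1 rose by 1.37 ± 0.056 (edgeR adjusted p = 3.88e-20), and from day 6 to day 12 the difference was -0.56 ± 0.054 (8.07e-10). Per transcript length, the ratio of Errfi1 to Egfr was 5.15 to 6.34 in the control libraries, 4.68 to 5.58 at day 2, 16.03 to 20.5 at day 6 and 13.2 to 19.6 at day 12. The transcript of the inhibitor thus stood higher over that of Egfr at the 2 later times, which gives no ratio of the proteins.

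**Figure D3:**
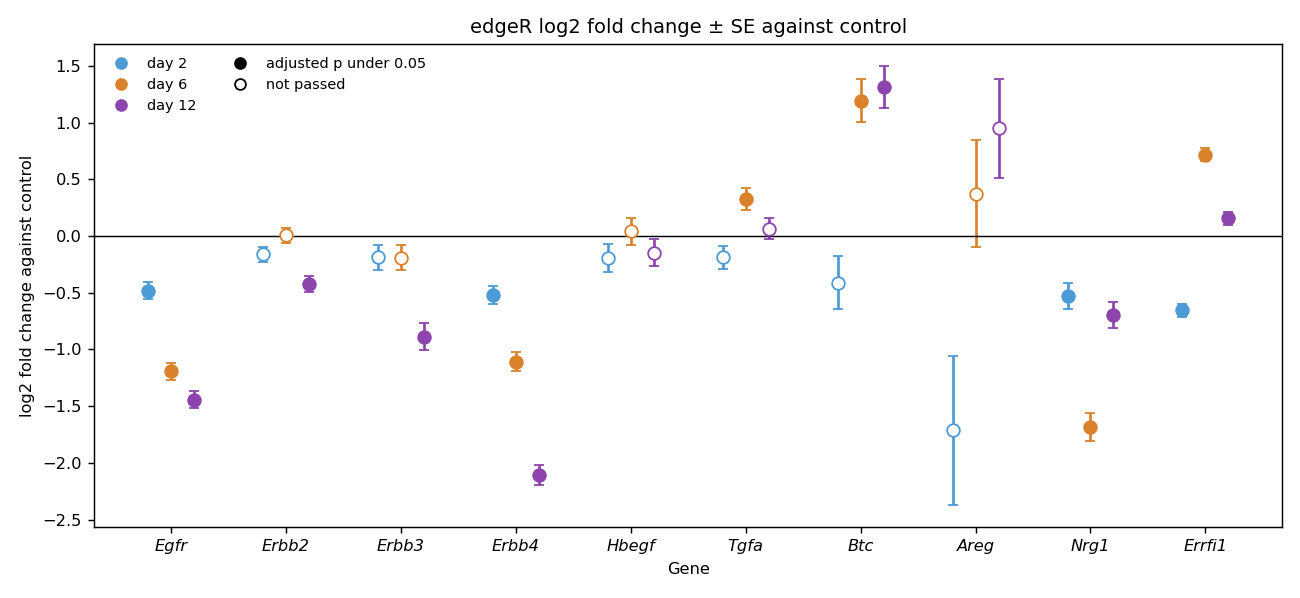
edgeR log2 fold change against control with its SE for 9 members and Erbb4 at days 2, 6 and 12; filled points passed an adjusted p of 0.05. Egfr (to -1.44) and Erbb4 (to -2.11) go down from day to day, Btc is at 1.19 and 1.31 at days 6 and 12, and Errfi1 is at -0.65, 0.72 and 0.16.

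By count, 3 of the 9 tested members passed at day 2 (Egfr, Nrg1 and Errfi1, all lower). Of all tested genes 21.2% passed, 10.3% higher and 10.9% lower. Leaving out day 2 B made the member count 5, with Erbb2 and Tgfa added. At day 6, 5 passed (Btc, Tgfa and Errfi1 higher, Egfr and Nrg1 lower) against 54.3% of all genes, 26.7% higher and 27.6% lower. At day 12, 6 passed (Btc and Errfi1 higher, the 3 receptors and Nrg1 lower) against 52.8%, 26.1% higher and 26.6% lower. At days 6 and 12 the share of members called was thus close to that of all genes. Between treated days, 7 of 9 passed for day 6 against day 2 (5 higher, 2 lower), against 44.9% of all genes, 22.6% higher and 22.3% lower. There were 6 for day 12 against day 6 (1 higher, 5 lower), against 22.0% of all genes, 11% higher and 11% lower. For day 12 against day 2 there were 7 (4 higher, 3 lower), against 43.9%, 22.3% higher and 21.6% lower. Areg was among the higher members in both comparisons with day 2, and entered the tests only through its day 12 libraries. The median log2 fold change of the tested members against control was -0.41, 0.042 and -0.15 at days 2, 6 and 12, and that of all tested genes -0.0015, -0.00602 and -0.0028. The 3 comparisons with control share the control libraries. The members were chosen with earlier results of these data known, so these counts are descriptions.

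Beyond the members, 88 further genes of the pathway were listed, of which 84 were tested. At day 2, 24 were higher and 7 lower, at day 6 55 higher and 10 lower, and at day 12 46 higher and 13 lower. Over all tested genes the shares higher and lower were 10.3% and 10.9% at day 2, 26.7% and 27.6% at day 6, and 26.1% and 26.6% at day 12. The median log2 fold change of the 84 was 0.082, 0.33 and 0.23. These lists too were chosen with earlier results of these data known, so their counts are descriptions.

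Of the other receptor and ligands, Egf was higher at day 6 (4.79 ± 0.397 against 2.39 ± 0.573 CPM in control, edgeR adjusted p = 9.70e-04) and at day 12 (4.76 ± 0.486 CPM, 0.00109). Nrg4, a ligand of ERBB4, had 1.55 ± 0.359 CPM in control and 0.691 ± 0.195 CPM at day 12 (edgeR adjusted p = 0.0331), a call that DESeq2 did not make (0.0798) and that was lost without control A, control B or any 1 of the day 12 libraries (up to 0.128). Epgn, Nrg2 and Nrg3 did not pass the filter on low counts, Nrg3 being at 0.

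Among 7 sheddase genes and their regulators, 1 was higher at day 2 (Rhbdf1), 2 of the list being called without day 2 C and 2 with upper-quartile scaling, and Adam10, Adam12, Rhbdf1, Rhbdf2 and Timp3 were higher at both day 6 and day 12. Over all tested genes, 10.3%, 26.7% and 26.1% were higher at days 2, 6 and 12. Adam12, a metalloprotease that can shed HB-EGF, had 0.771 ± 0.244, 0.843 ± 0.335, 5.19 ± 0.472 and 8.83 ± 0.5299 CPM from control to day 12 (edgeR adjusted p = 1.46e-09 at day 6 and 4.98e-13 at day 12). Rhbdf1, an iRhom that escorts ADAM17 to the cell surface, had 22.2 ± 1.53, 30.2 ± 2.87, 59.3 ± 4.595 and 39.999 ± 2.58 CPM, and Rhbdf2, the other iRhom, 26.8 ± 3.21, 28.7 ± 1.67, 41.9 ± 2.03 and 47.4 ± 1.47 CPM. Adam10, the main protease of betacellulin and EGF, was 1.13-fold higher at day 6, which did not pass without control B (edgeR adjusted p = 0.0581), and 1.31-fold higher at day 12. Timp3, which inhibits ADAM17 and so does not shed ligands, had 387 ± 22.4, 429 ± 25.7, 505 ± 6.64 and 583 ± 28.05 CPM. Adam17, the main protease of TGF-alpha and amphiregulin, had 65.7 ± 2.61, 62.6 ± 6.198, 61.3 ± 2.43 and 70.7 ± 1.54 CPM and Adam9 139.8 ± 7.68, 128 ± 6.44, 133 ± 12.5 and 146 ± 4.998 CPM, and neither passed against control on any day.

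Of 33 adaptors and transducers, 6 were higher and 1 lower at day 2, 21 and 4 at day 6, and 18 and 4 at day 12. That made 7, 25 and 22 of 33 called, where 21.2%, 54.3% and 52.8% of all tested genes were called. Pik3r1, a regulatory subunit of PI3K, rose at each day, with 59.1 ± 2.79, 85.3 ± 1.93, 141 ± 3.24 and 177 ± 7.06 CPM from control to day 12. Erbin, a scaffold that binds ERBB2, was also higher at all 3 days, with 303 ± 17.5, 463 ± 17.4, 574 ± 26.05 and 512 ± 10.5 CPM. Eps8, an EGFR substrate, had 29.2 ± 2.15, 34.1 ± 2.73, 68.5 ± 4.65 and 71.8 ± 2.35 CPM, Shc1, an adaptor between the receptors and RAS, 217 ± 5.17, 238 ± 12.1, 354 ± 6.75 and 271 ± 6.87 CPM, and the transcription factor gene Stat3 110.5 ± 2.39, 120.1 ± 4.997, 163 ± 3.82 and 170.2 ± 5.35 CPM, all 3 higher at days 6 and 12 and not passing at day 2. The gene that was lower at day 2, named after its values were seen, was Jak1.

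Of 25 tested genes listed as negative regulators, 11 were higher and 3 lower at day 2, 17 and 4 at day 6, and 14 and 5 at day 12. Called in either direction were thus 14, 21 and 19, against 21.2%, 54.3% and 52.8% of all tested genes. Sh3kbp1, which works with CBL in receptor internalisation, had 6.76 ± 0.9401, 10.05 ± 1.15, 29.99 ± 2.796 and 44.3 ± 2.65 CPM from control to day 12 and was higher at each day. Ptprk, a receptor phosphatase gene, had 251 ± 5.49, 303 ± 23.04, 350.2 ± 13.9 and 455 ± 5.196 CPM, its day 2 rise not passing in limma on log2(TPM + 1) (adjusted p = 0.0695). Lrig2, of the LRIG family of membrane proteins, had 47.6 ± 4.999, 48.5 ± 4.92, 87.5 ± 1.53 and 85.1 ± 3.82 CPM and Socs5 42.4 ± 4.73, 46.9 ± 2.94, 74.8 ± 1.53 and 75.05 ± 2.796 CPM, both higher at days 6 and 12. Zfp36, which promotes decay of AU-rich mRNAs, was highest at day 6, with 7.99 ± 0.622, 12.7 ± 1.66, 24.9 ± 2.39 and 13.03 ± 0.845 CPM. The lower genes, again named after their values were seen, were Lrig3, Ptprj and Spry1 at day 2, Lrig3, Usp8, Socs4 and Ptprj at day 6, and Lrig3, Usp8, Socs4, Ptprj and Spry1 at day 12. Whether each listed gene, Usp8 among them, restrains the receptors was not tested.

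Of 16 genes known to respond to ERK signalling, 6 were higher and 2 lower at day 2, 11 and 1 at day 6, and 8 and 2 at day 12. The day 2 calls numbered 8 in all, 5 without control B and 5 in limma on log2(TPM + 1). Over all tested genes, 21.2%, 54.3% and 52.8% were called in either direction at days 2, 6 and 12. From day 6 to day 12, 11 of the 16 fell, where 11% of all tested genes were lower. The list was chosen with earlier results of these data known, so this count is a description. Dusp4, an ERK phosphatase gene, had 4.08 ± 0.657, 11.2 ± 0.493, 40.5 ± 2.505 and 27.3 ± 2.45 CPM from control to day 12, 9.97-fold above control at day 6. Fos had 2.98 ± 0.9001, 4.35 ± 1.54, 15.2 ± 1.85 and 9.197 ± 2.504 CPM, and Epha2, a receptor tyrosine kinase gene, 83.4 ± 6.39, 88.9 ± 6.55, 159 ± 10.4 and 128 ± 5.07 CPM, both higher at days 6 and 12 and lower at day 12 than at day 6. Ier2 was higher than control at day 6 (59.96 ± 3.66 against 32.4 ± 6.12 CPM) and did not pass at day 2 or day 12, and Mcl1 had 199.6 ± 6.095, 208 ± 5.02, 288 ± 11.4 and 256 ± 11.1 CPM, higher at days 6 and 12. The lower genes, named after their values were seen, were Phlda1 and Plaur at day 2, Plaur at day 6, and Phlda1 and Plaur at day 12.

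**Figure D4:**
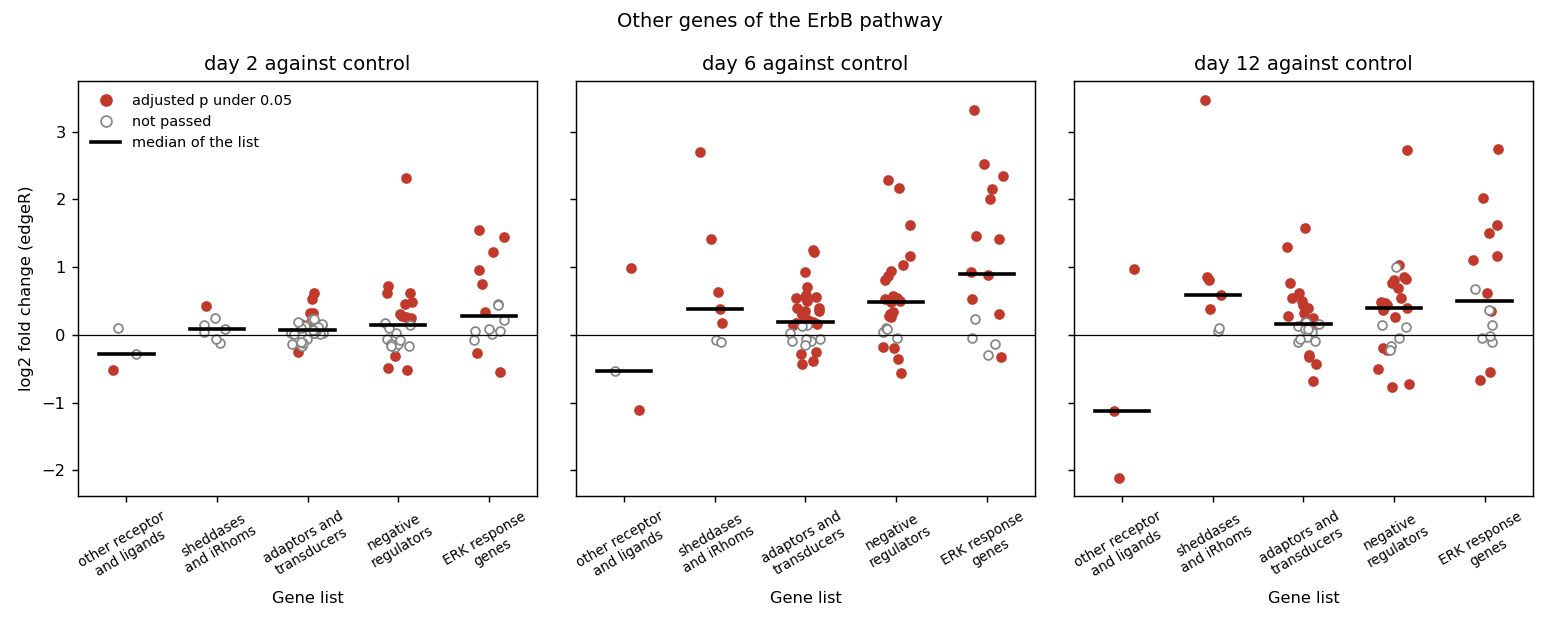
edgeR log2 fold change against control of each tested gene of the 5 pathway lists at days 2, 6 and 12 (red: adjusted p under 0.05, bar: median of the list). The ERK response genes have a median of 0.28, 0.91 and 0.49 and the negative regulators of 0.15, 0.48 and 0.39, and Erbb4 is at -2.11 at day 12.

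Genes with a level pattern like that of a member were ranked by Pearson correlation of log2(CPM + 1) over the 12 libraries, among 10515 genes with a mean of at least 5 CPM. The 12 libraries form 4 groups, so these values describe shared steps between groups. For Erbb2, the member receptor of highest TPM, the nearest were Plxnb1 (0.965), Cpt1a (0.938) and Entr1 (0.925). Plxnb1, a semaphorin receptor gene, had 159.6 ± 8.24, 143 ± 4.85, 154 ± 9.37 and 118 ± 2.23 CPM from control to day 12. For Tgfa, the member ligand of highest mean TPM over the 4 groups (Hbegf had the higher mean in control and at day 2, with overlapping ranges), they were Ptov1 (0.913), Per1 (0.904) and Rnf167 (0.897). Per1, a gene of the circadian clock, had 23.97 ± 1.27, 21.6 ± 2.58, 32.4 ± 2.797 and 25.6 ± 1.14 CPM.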

How the data were processed

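PolyA RNA of 12 libraries was sequenced. The submitters' processing notes list GRCm38 and, without roles, RSEM 1.3.3, STAR 2.7.8a, cutadapt 2.3 and FastQC 0.11.8. The annotation release and strand setting are not given in the sources used here. The expected counts deposited by the authors are whole numbers without normalization, and 34 to 60 genes per library had a count of 0 beside a TPM above 0. The TPM values were deposited by the authors in a separate table. Library columns left out numbered 0. Counts were tested with edgeR 4.0.16 in R 4.3.3: filterByExpr by group left 13513 genes, totals were scaled by TMM, and a single robust quasi-likelihood fit over the 4 groups used every library (residual degrees of freedom 8, common BCV 0.0577). Tests were two-sided, with Benjamini-Hochberg adjustment over all tested genes and a threshold of 0.05. Alternatives were DESeq2 1.42.0, other scalings and filters, limma 3.58.1 on TPM, fits to 2 groups, a replicate block and leaving out each library. The code was tested on simulated data. Replicates of a group differed by more than sampling noise, with a chi-square per degree of freedom (genes of 20 counts or more) of 2.12 to 7.56. The members and lists were chosen with earlier results of these data known. All members, Pax8 and all other receptors, ligands, sheddases and iRhoms were named, and from each remaining list the 5 genes of smallest F-test p across groups with a mean of at least 5 CPM. For likeness, the 3 nearest genes to the receptor and to the ligand of highest TPM were named. Positions are from GENCODE M21. The adaptors and transducers that were lower at days 6 and 12 are given by count, and their names are not reported here.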

Additional observations from a re-analysis of the deposited data

Results flagged for a closer look

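The effects of 2 treated days, each set against the same control, differ where the direct comparison of those days passes edgeR's test. For day 6 against day 2 this held for 7 members, with log2 differences for Egfr (-0.71), Erbb2 (0.17), Areg (2.09), Tgfa (0.52), Btc (1.60), Nrg1 (-1.16) and Errfi1 (1.37). The members called numbered 6 with DESeq2 and 5 in the fit to the 2 groups, where Areg was not tested. Areg had 30 counts at day 6 and 6 at day 2, summed over libraries. Its edgeR adjusted p reached 0.0479 when a library was left out. Areg entered the tests only through its day 12 libraries, so its values here and for day 12 are descriptions. The Erbb2 difference had an edgeR adjusted p of 0.0421 and was lost in 8 of 21 alternatives, among them DESeq2 (0.0649) and the fits without day 2 A (0.0883), day 2 C (0.146), day 6 B (0.121) or day 6 C (0.2003). For day 12 against day 6 it held for Egfr (-0.25), Erbb2 (-0.43), Erbb3 (-0.70), Tgfa (-0.26), Nrg1 (0.99) and Errfi1 (-0.56), where the Tgfa call was lost in 8 of 21 alternatives, among them DESeq2 (adjusted p = 0.0742), limma on log2(TPM + 1) (0.265), upper-quartile scaling (0.0543) and the fits without day 6 A (0.06501), day 6 C (0.2203), day 12 B (0.0717) or day 12 C (0.137). For day 12 against day 2 it held for Egfr (-0.96), Erbb2 (-0.26), Erbb3 (-0.70), Areg (2.66), Tgfa (0.25), Btc (1.72) and Errfi1 (0.81), the Erbb2 call being lost in limma on log2(TPM + 1) (adjusted p = 0.144). There the Tgfa call was lost in DESeq2 (adjusted p = 0.08701), in the fit to the 2 groups (0.0687) and without day 2 A (0.131), day 2 C (0.279, the difference being 0.15), day 12 A (0.111) or day 12 B (0.0947). Errfi1 was the member whose difference from control passed in both directions, lower at day 2 and higher at days 6 and 12.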

How the results depend on the processing

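Over 54 results on single members, 1053 of 1125 alternative values kept direction and side of the threshold. Areg gave no value under the stricter filter or in fits to 2 groups without day 12, and these are not in the tally. All alternatives use the same libraries, so they are not independent of each other. With limma on log2(TPM + 1) the genes called numbered 1744 in place of 2860 for day 2 against control and 1379 in place of 2971 for day 12 against day 6, and on log2(TPM + 0.1) 1725 and 1300; the cause was not tested. On TPM, with either offset, the day 2 calls were 5 among the ERK response genes, 4 among the adaptors and 6 among the negative regulators, and with upper-quartile scaling 2 among the sheddases and their regulators. Leaving out each library in turn, the members called against control ranged from 3 to 5 at day 2 and from 5 to 7 at day 12. At day 6 they stayed at 5. Between treated days the range was 6 to 8 for day 6 against day 2 and 4 to 6 for day 12 against day 6. For day 12 against day 2 it was 6 to 7. Signs turned only in differences that had not passed. The Erbb3 difference between day 6 and day 2, -3.87e-04, was 0.0032 with DESeq2, 0.0025 with RLE factors, 0.0093 without a filter, 0.0069 with a stricter filter, 0.11 and 0.12 on TPM with either offset, and -0.045 to 0.039 leaving out libraries. On TPM, with the larger and the smaller offset, Nrg1 at day 12 against day 2 was 0.0601 and 0.066, and against control Adam9 at day 6 was 0.0298 and 0.0303, Adam17 at day 6 9.22e-04 and 0.001002, and Ier2 at day 12 0.0078 and 0.0083. The other ranges that crossed 0 when a library was left out were -0.039 to 0.067 for Erbb2 at day 6 against control, -0.014 to 0.12 for Hbegf at day 6 against control, -0.072 to 0.16 for Hbegf at day 12 against day 2, -0.00705 to 0.33 for Egf at day 2 against control, -0.0052 to 0.15 for Rhbdf2 at day 2 against control, -0.045 to 0.091 for Lrig2 at day 2 against control, -0.23 to 0.045 for Ier2 at day 2 against control, -0.20 to 0.076 for Ier2 at day 12 against control, -0.0035 to 0.078 for Adam10 at day 2 against control, -0.021 to 0.56 for Adam12 at day 2 against control and -0.0997 to 0.00696 for Adam17 at day 2 against control. The letters A, B and C did not pair the libraries: deviations of same-letter libraries correlated at -0.139 to 0.113, with 1 of 18 pairs above 0.1, and 4 of 12 libraries correlated best with one of their own letter. The fit with a replicate block called 3, 5 and 6 members at days 2, 6 and 12 against control and 2932 genes at day 2, turned the Erbb3 difference between day 6 and day 2 to 6.21e-04, and changed no call on a named gene. Among the tested members Areg had the fewest reads, 104 over all libraries.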

Other observations

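The deposited TPM of a member divided by its CPM reflects the transcript length used for it in that library, and for Egfr, Nrg1, Btc and Tgfa this ratio varied between libraries of a group. Relative to the median ratio of tested genes with a mean of at least 5 CPM in the same library, it was 0.716 to 0.733 for Nrg1 in control and 0.839 to 1.06 at day 12. For Egfr it was 0.289 to 0.363 in control and 0.303 to 0.431 at day 12, where Egfr spanned 7.71 to 11.5 TPM and 40.02 to 41.2 CPM. For Btc it was 0.902 to 1.62 at day 2 and 0.899 to 0.915 in control, and for Tgfa 0.5596 to 0.644 at day 12 and 0.554 to 0.559 in control, so the order of levels and the ligand shares in TPM carry this spread. For Erbb3 it was 0.408 to 0.413 in control and 0.4097 to 0.415 at day 12. GENCODE M21 lists 18 transcripts for Nrg1, 5 for Egfr and 1 for Erbb3, and transcript use was not tested.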
